A study of Homo sapiens with 6 samples.

Results

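Ankyrins, spectrins and proteins 4.1 were followed in U87 cells, an established human glioma line, after knockdown of PCGF1. The group comprised ANK1, ANK2, ANK3, SPTB, SPTAN1, SPTBN1, EPB41 and EPB41L1, 8 of the 18132 genes measured. Every probe set annotated with exactly 1 gene symbol was taken when that symbol was one of these, which gave 42 of the 49293 probe sets. Expression was read on 6 Affymetrix arrays of biotin-labelled cRNA. In 3 arrays the RNA came from U87-PCGF1-shRNA cells, which carry a lentiviral short hairpin RNA directed at PCGF1, and in 3 from U87-NC cells, which had received a negative control lentivirus. Cells of either kind grew in DMEM with serum, and all names of the shRNA samples carry T0 while all names of the NC samples carry T1, so whatever these stand for and the knockdown cannot be told apart. The labels call the arrays biological replicates, but nothing says that they came from separate cultures or how many hairpin sequences or cell clones were used. The p-values therefore measure only the spread between these samples.

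Ankyrins are adaptor proteins that tie membrane proteins to spectrin. Spectrin is a long tetramer of alpha and beta chains that forms a flexible lattice under the plasma membrane, and protein 4.1 fastens that lattice to short actin filaments and to membrane proteins. The network was first described in red cells, where defects in it cause hereditary spherocytosis and elliptocytosis. Its non-erythroid forms organise ion channels and adhesion molecules in neurons and other cells. PCGF1 belongs to PRC1.1, a Polycomb complex whose subunit KDM2B binds CpG-rich DNA.

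The deposited log2 signal of each probe set is centred on its own median over the 6 arrays, so a value compares arrays and says nothing of absolute expression. For the same reason the levels of defining glioma markers could not be checked. By construction the middle 2 of a probe set's 6 values are equal in size and opposite in sign. A gene's value is the mean over its probe sets. PCGF1 itself was at -0.27, -0.13 and -0.19 in the knockdown arrays, against 0.13, 0.27 and 0.29 in the control arrays. Its single probe set thus gave a log2 difference of -0.43 with an SE of 0.06 (adjusted p = 0.00410 by limma). The 3' and 5' control signals, whose difference is used as a sign of RNA integrity, are centred too. Their difference thus compares arrays and does not show whether the RNA was intact. For ACTB, 3' minus 5' lay between 0.01 and 0.11 in knockdown arrays and between -0.07 and 0.04 in control arrays. For GAPDH the ranges were -0.01 to 0.04 and -0.01 to 0.01. The mean was higher in knockdown by 0.08 for ACTB and 0.02 for GAPDH. The part of RNA integrity in the results was not tested.

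The 8 genes were chosen with this same comparison in view, ANK1 as one of the largest rises of the series. Their differences, and any calls named with them, are therefore given as a description, with standard errors and without p-values. They support nothing about the group. ANK1 stood far above the other members. It was 1.69-fold higher in knockdown cells, number 8 of the 18132 genes from the top, while the other 7 lay between -0.06 and 0.26 on the log2 scale. In 6 of the 8 genes every knockdown array was above every control array, where 17.1% of all genes showed this. SPTB and EPB41 had overlapping groups. The limma fit over all genes called 3 of the 8, all higher, namely ANK1, ANK3 and SPTAN1, beside 11.0% of all genes called in either direction and 6.36% called higher. Nothing is read from these counts. The median difference of the 8 genes was 0.19, and 0.18 without ANK1, against -0.01 over all genes.

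**Figure D1:**
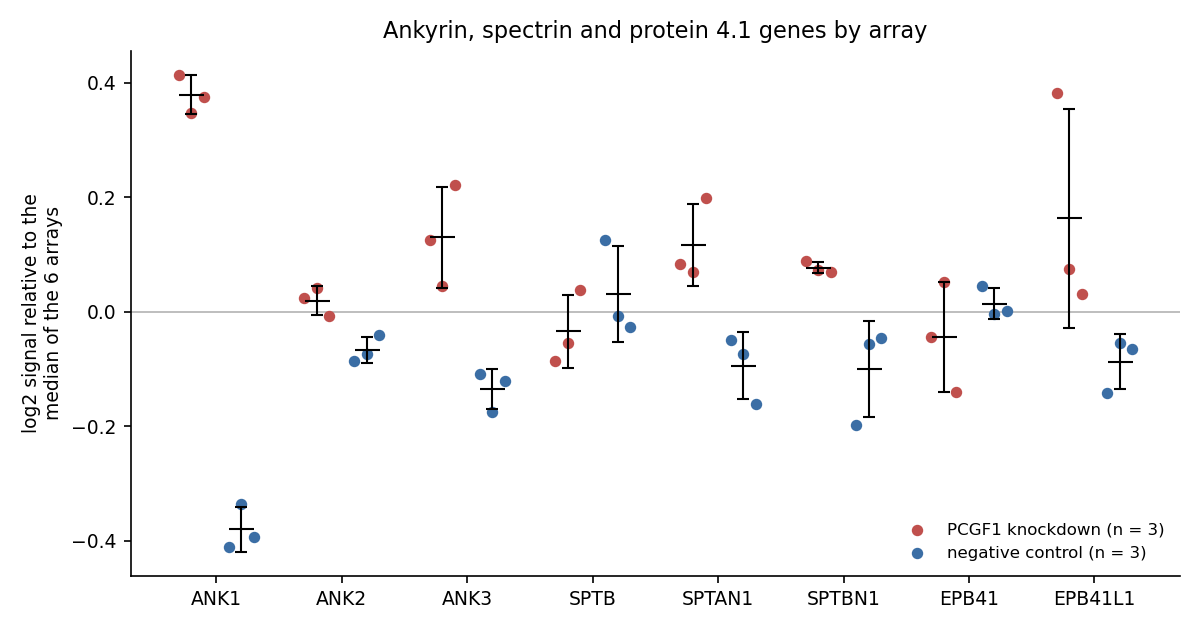
Log2 signal of each gene (vertical axis, relative to the median of the 6 arrays) in 3 PCGF1 knockdown arrays (red) and 3 negative control arrays (blue), with the mean and SD of each group as bars. ANK1 shows the widest gap, with knockdown arrays between 0.35 and 0.41 and control arrays between -0.41 and -0.34, and the groups overlap for SPTB and EPB41.

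ANK1 encodes ankyrin-R, the ankyrin of red cells, which also occurs in some neurons and, as a small isoform, in striated muscle. The gene average was 0.41, 0.35 and 0.38 in knockdown arrays 1 to 3, against -0.41, -0.34 and -0.39 in control arrays 1 to 3. Arrays of the same group lay close together, within 0.07 of each other in knockdown and 0.07 in control, and the groups were far apart. The difference was 0.76 ± 0.04 (SE), with group means of 0.38 ± 0.03 and -0.38 ± 0.04 (SD, n = 3 each).

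The 7 ANK1 probe sets all pointed upwards but differed widely in size, from 0.29 to 1.18 on the log2 scale. In all 7 the groups did not overlap, where 29.5% of all probe sets had non-overlapping groups and 15.7% had them with knockdown higher. Of the 7, 6 were called, all higher, beside 7.24% of all probe sets called in either direction and 4.30% called higher. ANK1 was chosen for its rise in this same comparison, and its 7 probe sets read 1 gene on the same arrays. They are not separate evidence, and nothing is read from these counts. The largest difference was that of 11741071_a_at, at 0.59, 0.60 and 0.45 in knockdown arrays and -0.85, -0.59 and -0.45 in control arrays, which is 2.26-fold. Next came 11734352_a_at at 1.08 ± 0.08 (SE) or 2.11-fold, with 0.56, 0.52 and 0.46 in knockdown arrays and -0.74, -0.46 and -0.50 in control arrays. These were the only members' probe sets above a 2-fold difference, and in each the first control array was the lowest.

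The middle of the ANK1 range was held by 11734353_x_at at 0.83 ± 0.10, 11747185_x_at at 0.78 ± 0.11 and 11734354_s_at at 0.71 ± 0.05. The _x_at and _s_at endings mark probe sets whose probes can also match other transcripts, and those ending in _a_at match transcripts of 1 gene. In the first 2 of these the second knockdown array was the lowest of its group, at 0.25 and 0.20. The smallest differences were 0.46 ± 0.07 for 11755227_x_at and 0.29 ± 0.08 for 11740098_a_at. The last was at 0.03, 0.27 and 0.11 in knockdown arrays and -0.03, -0.21 and -0.21 in control arrays, so the nearest arrays of the groups almost touched. The size did not follow the name ending, since the _a_at probe sets held the 2 largest values and the smallest. Which exons or isoforms each probe set reads is not known here.

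**Figure D2:**
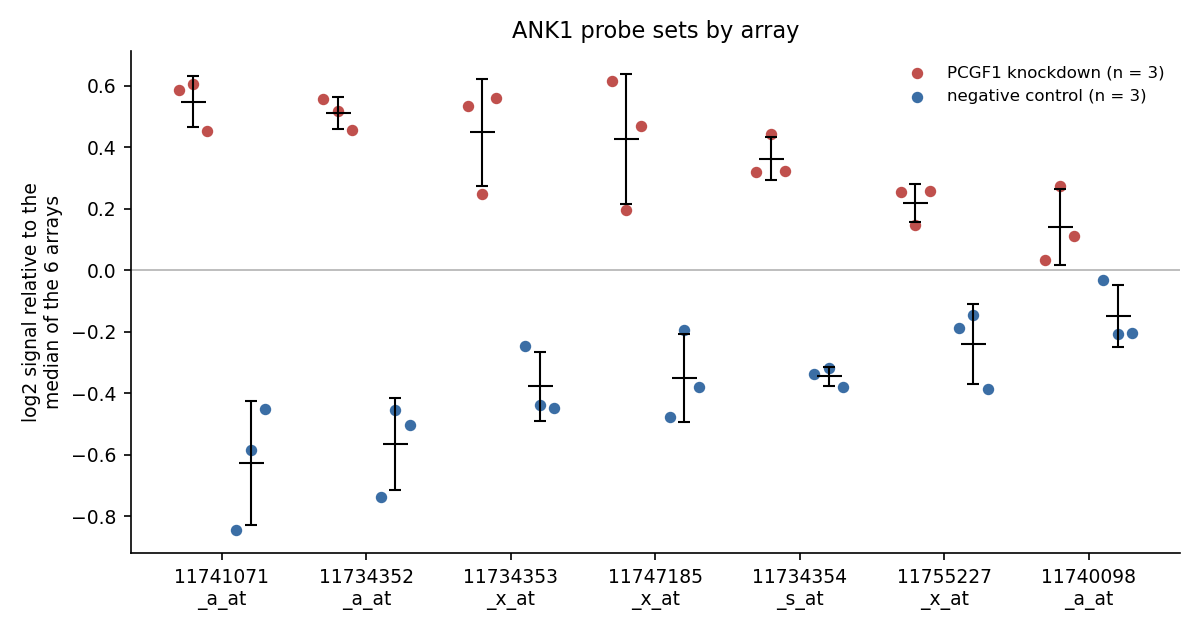
Log2 signal of the 7 ANK1 probe sets (vertical axis, relative to the median of the 6 arrays), ordered by size of the difference, in 3 PCGF1 knockdown arrays (red) and 3 negative control arrays (blue), with group mean and SD as bars. All knockdown arrays lie above all control arrays in each probe set, and the gap narrows from 1.18 for 11741071_a_at on the left to 0.29 for 11740098_a_at on the right.

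ANK3 encodes ankyrin-G, which assembles the axon initial segment and the lateral membrane of epithelial cells. Its average was 0.13, 0.04 and 0.22 in knockdown arrays, against -0.11, -0.17 and -0.12 in control arrays, a difference of 0.26 ± 0.05 (SE). The knockdown arrays were more scattered than the control arrays, with SDs of 0.09 and 0.04. All 4 probe sets were higher in knockdown, from 0.09 to 0.43, but none was called on its own. In the most extreme, 11721205_a_at, the spread lay in the controls, which were at -0.03, -0.61 and -0.29, with knockdown arrays at 0.23, 0.03 and 0.11. The call of the average was lost without knockdown array 1 or 3 or control array 2 or 3, while the difference stayed between 0.22 and 0.31 whichever of the 6 arrays was left out.

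ANK2 encodes ankyrin-B, which places ion transporters in heart muscle and supports axons. The averages were 0.02, 0.04 and -0.01 in knockdown arrays and -0.09, -0.07 and -0.04 in control arrays, a difference of 0.09 ± 0.04 (SE). The groups did not overlap, but the margin between them was narrower than the range within either. A single probe set stood apart from the other 4. 11755331_a_at was at 0.13, 0.12 and 0.12 in knockdown arrays and -0.12, -0.15 and -0.19 in control arrays, a difference of 0.28 ± 0.05, and was called, though among the 6 omissions the call held only without knockdown array 2 or control array 1. The other 4 lay between -0.04 and 0.08.

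The spectrin genes did not share 1 pattern. SPTAN1 encodes alpha-II spectrin, the alpha chain of non-erythroid cells, and SPTBN1 the beta-II chain that pairs with it. SPTAN1 averaged 0.08, 0.07 and 0.20 in knockdown arrays, against -0.05, -0.07 and -0.16 in control arrays. The difference was 0.21 ± 0.05 (SE) or 1.16-fold, with the third knockdown array highest and the third control array lowest. Its call was lost with each of the 6 arrays omitted in turn, with differences from 0.17 to 0.24. Of its 5 probe sets 4 were higher, between 0.23 and 0.30, and 11751947_a_at was at -0.01.

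SPTBN1 averaged 0.09, 0.07 and 0.07 in knockdown arrays and -0.20, -0.06 and -0.05 in control arrays, a difference of 0.18 ± 0.05 (SE). The knockdown arrays were nearly equal, and the first control array lay apart from the other two. Without that array the difference was 0.13. This gene had the most probe sets, 9, of which 8 were higher in knockdown and 1, 11716423_a_at, was at -0.02. None was called, and the range reached 0.32. In 6 every knockdown array was above every control array, where 15.7% of all probe sets showed this. The 9 probe sets read 1 gene on the same arrays and are not separate evidence. The order of the differences of SPTAN1 and SPTBN1 is not settled. They were 0.03 apart, with a standard error of that gap of 0.07 when the genes are taken as independent. Both were read on the same arrays, so that error is approximate.

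SPTB encodes the beta-I chain of red cells, muscle and brain. It showed no separation, at -0.09, -0.05 and 0.04 in knockdown arrays, against 0.13, -0.01 and -0.03 in control arrays. The difference was -0.06 ± 0.06 (SE), and the 4 probe sets ran from -0.12 to 0.02 with overlapping groups in each. It had the lowest difference of the 8 genes, but leaving out 1 array moved it between -0.10, without knockdown array 3, and -0.02, without control array 1.

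EPB41 encodes protein 4.1R, the red cell form, which is also found in other tissues, and EPB41L1 encodes protein 4.1N of neurons. EPB41 averaged -0.04, 0.05 and -0.14 in knockdown arrays, against 0.0448, -0.00313 and 0.000728 in control arrays, with a difference of -0.06 ± 0.05 (SE). Without knockdown array 3 the difference was -0.01, and without knockdown array 2 it was -0.11. The average combines probe sets of opposite sign. 11746365_a_at and 11746366_x_at were at -0.21 ± 0.11 and -0.19 ± 0.09, while 11754990_a_at and 11739122_a_at were at 0.11 ± 0.06 and 0.05 ± 0.06. The groups overlapped in all 4.

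EPB41L1 rested largely on 1 array. Its average was 0.38, 0.07 and 0.03 in knockdown arrays, against -0.14, -0.06 and -0.06 in control arrays, a difference of 0.25 ± 0.09 (SE). The first knockdown array lay 0.31 above the next one, and without it the difference was 0.14. In 3 of the 4 probe sets every knockdown array was above every control array, where 15.7% of all probe sets showed this. The highest was 11740141_a_at at 0.43 ± 0.11, and 11747976_x_at was at -0.02 ± 0.07.

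In the order of the differences, ANK1 was followed by ANK3, EPB41L1, SPTAN1, SPTBN1 and ANK2, with EPB41 and SPTB last. ANK1, chosen for its rise here, lay 0.49 above ANK3. Neighbours from ANK3 down to ANK2 lay within 2 standard errors of each other, as did EPB41 and SPTB, and ANK2 lay 0.14 above EPB41. These standard errors take the genes as independent, though all were read on the same arrays. Some calls depended on which probe sets stood for a gene. With the most variable one ANK2 was called, at 0.28, and ANK3 and SPTAN1 were not, at 0.43 and 0.23. With the median probe set SPTBN1 was called, at 0.19, and SPTAN1 was not, at 0.20, and without _s_at and _x_at probe sets SPTAN1 was not called, at 0.17. Over all 42 probe sets, 33 had positive and 9 negative differences, and 9 were called, all higher, beside 4.30% of all probe sets called higher. Of these 9, 6 belonged to ANK1, 2 to SPTAN1 and 1 to ANK2, so that 3 of the 35 probe sets of the other genes were called. The SPTAN1 calls were also lost when arrays were left out. Among the 6 omissions 11715963_a_at stayed called only without knockdown array 2, and 11758363_s_at in none of them. Their differences stayed between 0.23 and 0.35 and between 0.23 and 0.28. Leaving out any 1 array also cut the probe sets called higher over the whole series, from 2120 to between 808 and 1308.

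**Figure D3:**
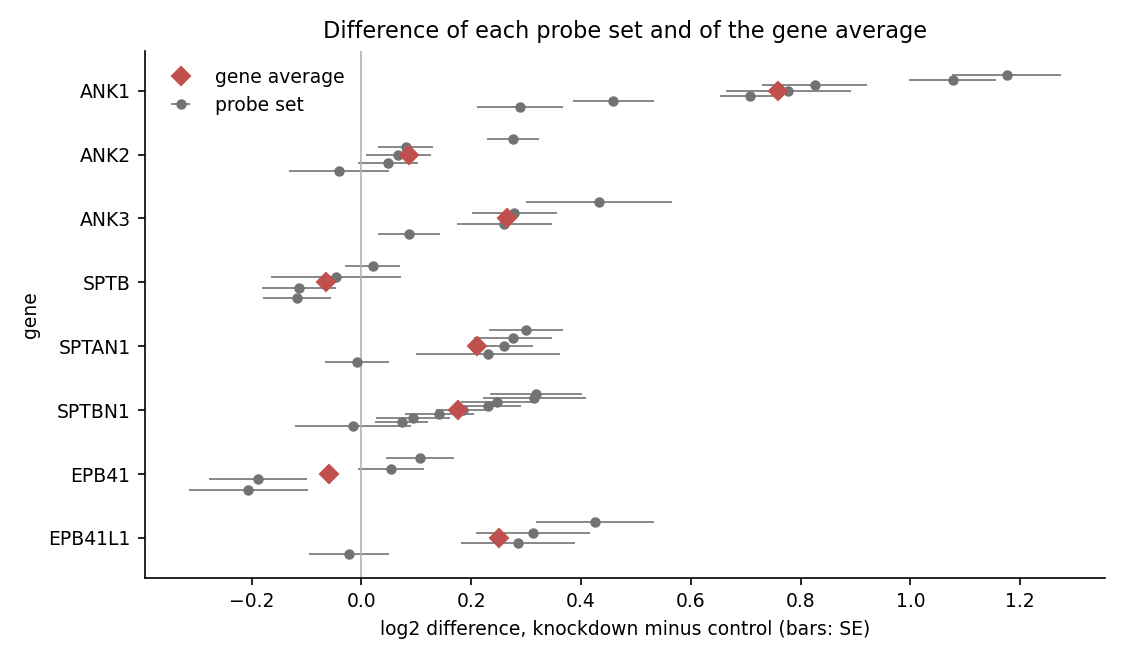
Log2 difference, knockdown minus control, of every probe set (grey points, bars are SE) and of the gene average (red diamonds) for the 8 genes. The 7 ANK1 probe sets spread from 0.29 to 1.18, EPB41 has probe sets on either side of 0, and 1 probe set each of ANK2, SPTAN1, SPTBN1 and EPB41L1 lies slightly below 0.

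The upstream sequence of 4 members is shown because KDM2B binds CpG-rich DNA. ANK3 and SPTAN1 are the called members with an entry, and SPTBN1 and SPTB are the beta chains, which were not called. Each run holds the 250 bases before the gene's most upstream start in RefSeq (GRCh38.p14), written 5′ to 3′ on the gene's strand. Capitals mark each CG, which reads the same on either strand.
ANK3, chr10:60733529-60733778, strand -: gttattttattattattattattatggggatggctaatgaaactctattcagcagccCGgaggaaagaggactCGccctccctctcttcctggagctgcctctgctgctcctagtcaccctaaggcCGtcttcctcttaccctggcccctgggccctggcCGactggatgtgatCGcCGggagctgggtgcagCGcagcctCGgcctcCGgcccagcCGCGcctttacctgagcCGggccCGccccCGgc
SPTAN1, chr9:128552337-128552586, strand +: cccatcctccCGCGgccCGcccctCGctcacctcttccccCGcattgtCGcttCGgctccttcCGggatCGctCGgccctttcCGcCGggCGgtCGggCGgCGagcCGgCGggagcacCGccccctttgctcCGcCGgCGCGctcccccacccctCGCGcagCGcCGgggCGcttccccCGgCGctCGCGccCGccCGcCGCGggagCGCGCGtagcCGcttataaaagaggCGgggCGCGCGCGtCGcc
SPTBN1, chr2:54456077-54456326, strand +: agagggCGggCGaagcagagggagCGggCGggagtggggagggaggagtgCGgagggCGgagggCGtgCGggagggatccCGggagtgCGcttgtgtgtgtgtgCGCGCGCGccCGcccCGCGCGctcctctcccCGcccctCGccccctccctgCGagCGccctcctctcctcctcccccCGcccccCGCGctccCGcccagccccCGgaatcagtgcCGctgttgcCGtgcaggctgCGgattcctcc
SPTB, chr14:64879908-64880157, strand -: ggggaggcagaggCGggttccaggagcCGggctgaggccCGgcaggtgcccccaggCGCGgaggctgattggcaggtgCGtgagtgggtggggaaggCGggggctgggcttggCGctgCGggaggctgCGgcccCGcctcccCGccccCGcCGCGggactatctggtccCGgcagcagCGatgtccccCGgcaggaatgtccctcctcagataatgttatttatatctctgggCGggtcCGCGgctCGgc
SPTAN1 had 46 CG dinucleotides in this window, a number reached by 0.4% of the 35116 promoters in the table, SPTBN1 had 30 (reached by 12.4%), SPTB 22 (28.0%) and ANK3 14 (44.8%). Among the others EPB41 had 17 (39.0%), ANK2 11 (50.3%) and EPB41L1 2 (85.3%), and 93.9% of all promoters held at least 1 CG, with a median of 11. Binding was not measured and no relation of CG number to expression was tested. An entry was present for 7 of the 8 genes, and ANK1, the member with the largest difference, had none. ANK2, ANK3, SPTB, SPTBN1, EPB41 and EPB41L1 have further starts downstream.

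The 16 measured genes next to the members in RefSeq order had log2 differences between -0.20 and 0.16. ANK1 lies on chromosome 8, and its measured neighbours NKX6-3, a homeobox factor, and KAT6A, a histone acetyltransferase, had log2 fold changes of -0.19 ± 0.10 and 0.07 ± 0.05 (SE, limma, adjusted p = 0.286 and 0.389), with overlapping groups. CAMK2D, a calcium and calmodulin dependent kinase that follows ANK2, was the only called one of these, at 0.14 ± 0.04 (adjusted p = 0.0477). That call did not survive omission of any single array (adjusted p 0.0760 to 0.128) and held in 3 of 14 alternatives.

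The remaining genes of the membrane skeleton and its partners were taken from 6 lists chosen by function, 116 genes of which 93 had a single-symbol probe set here. By limma 7 of the 93 rose and 3 fell, beside 6.36% of all genes called higher and 4.63% called lower. Their median difference was 0.01. At an unadjusted p under 0.05 there were 24 higher and 8 lower, where 14.2% of all genes were higher and 12.4% lower at that threshold. Lists this short hold few genes at such shares, and nothing particular to a list is read from its count. Leaving out any 1 array cut the calls over all genes, from 1154 to between 553 and 812 higher. Those called lower went from 840 to between 395 and 590. A call lost on omission of an array is therefore not particular to the gene named.

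Of 10 other spectrin, protein 4.1 and related genes 0 rose, also 0 at an unadjusted p under 0.05, and 1 fell by limma, with a median of -0.05. The one was EPB41L4B, a membrane-associated FERM protein, at -0.07, -0.08 and -0.09 in knockdown arrays against 0.07, 0.08 and 0.09 in control arrays. Its log2 fold change was -0.16 ± 0.04 (SE, adjusted p = 0.0283), a call that each of the 6 omissions ended (adjusted p 0.0655 to 0.0939), as did removal of _s_at and _x_at probe sets (adjusted p = 0.0881). Under the omissions its difference stayed between -0.16 and -0.15. Its 4 probe sets included 1 with a positive difference. Among 16 genes of the actin junction, the adducins, tropomodulins, tropomyosins and actins among them, 0 rose and 0 fell by limma, with 4 higher and 1 lower at an unadjusted p under 0.05 and a median of 0.03. Of 6 genes for calpains, their inhibitor and palmitoyl transferases that act on spectrin or ankyrin 0 were called by limma, with 2 higher and 0 lower at an unadjusted p under 0.05.

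The list of membrane proteins that bind ankyrin or protein 4.1, with their close relatives, held the 2 largest rises of the 6 lists. Of 32 measured genes 3 rose and 1 fell, with a median of 0.01. SCN2A, a voltage-gated sodium channel of axons, was at 0.24, 0.22 and 0.24 in knockdown arrays against -0.18, -0.22 and -0.20 in control arrays. It rose by 0.43 ± 0.04 (SE, limma, adjusted p = 0.000602), but its 2 probe sets differed, at 0.76 and 0.10, and with _s_at and _x_at probe sets removed it was at 0.10 (adjusted p = 0.568). ATP1B1, the beta subunit of the sodium pump, was at 0.22, 0.19 and 0.20 in knockdown arrays against -0.29, -0.17 and -0.20 in control arrays. This was a rise of 0.42 ± 0.04 (adjusted p = 0.00139), with all 3 probe sets between 0.39 and 0.49, and the call held in all 14 alternatives tried. SLC4A4, a sodium bicarbonate cotransporter of the family of the red cell anion exchanger, rose by 0.27 ± 0.04 (adjusted p = 0.00663), again in all 14, although its 5 probe sets ran from -0.06 to 0.54. NCAM1, the neural cell adhesion molecule, fell by 0.15 (SE 0.04, adjusted p = 0.0403), which again no omission of 1 array left in place (adjusted p 0.0594 to 0.123) and which was also lost under all 3 other ways of taking a gene's value (adjusted p 0.0847 to 0.341).

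Among 17 ERM proteins and other linkers between membrane and actin 3 rose and 1 fell, with a median of 0.04. Each of these calls was lost without certain arrays. PLEC, the cytolinker plectin, rose by 0.24 ± 0.06 (SE, limma, adjusted p = 0.0397), and the call held only without control array 1 among the 6 omissions (adjusted p up to 0.116). DST, dystonin, rose by 0.22 ± 0.04 (adjusted p = 0.0183), lost without knockdown array 1 or 3 or control array 1 or 2 (adjusted p 0.0574 to 0.0686). TLN2, talin 2, which links integrins to actin, rose by 0.22 ± 0.05 (adjusted p = 0.0382), lost without any array but knockdown 2 (adjusted p 0.0803 to 0.108). EZR, ezrin, fell by 0.17 (SE 0.04, adjusted p = 0.0395), lost without any 1 of the 6 arrays (adjusted p 0.0519 to 0.118). When each gene was read by its most variable probe set, DST was at 0.36 and TLN2 at 0.26, neither of them called (adjusted p 0.118 and 0.115). PLEC, which has 1 probe set, kept its value in that fit, where its adjusted p was 0.0859. That probe set is itself an _s_at or _x_at one, so PLEC had no value once these were removed. DST was also not called without _s_at and _x_at probe sets (adjusted p = 0.0720), and EZR was not with the median probe set (adjusted p = 0.124).

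Of 12 genes tied to the small muscle form of ankyrin 1 or to the sarcoplasmic reticulum where it resides, 1 rose and 0 fell, with 3 higher and 2 lower at an unadjusted p under 0.05 and a median of -0.05. The riser was ATP2A2, the calcium pump SERCA2, which is expressed widely, at 0.20 ± 0.04 (SE, limma, adjusted p = 0.0176). It was lost without any array but knockdown 2 (adjusted p 0.0550 to 0.0607).

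**Figure D4:**
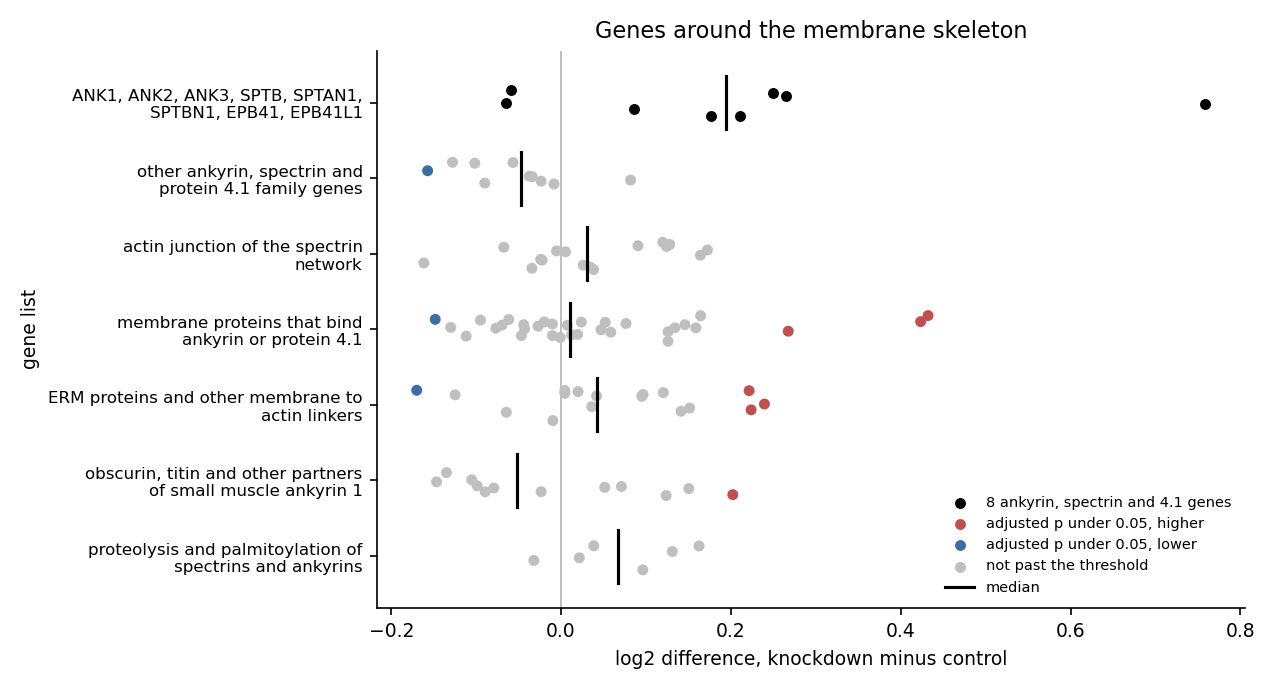
Log2 difference, knockdown minus control (horizontal axis), of the 8 ankyrin, spectrin and protein 4.1 genes (black) and of the 6 lists of related genes, each point a gene and each vertical bar the median of a row. Related genes past an adjusted p of 0.05 are red where higher and blue where lower. ANK1 at 0.76 lies beyond all related genes, the highest of which is SCN2A at 0.43.

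Markers of cells that use these proteins were counted beside the 11.0% of all genes called in either direction. Of 12 red cell genes 0 were called by limma (0 higher and 1 lower at an unadjusted p under 0.05), and of 20 skeletal muscle genes 0 were called (1 higher and 1 lower). The neuron list had 1 of 17 called higher and 0 lower (2 higher and 0 lower at an unadjusted p under 0.05), while 10 had negative differences. The called one was MAP2, a microtubule protein of dendrites, at 0.36 ± 0.05 (SE, adjusted p = 0.00496). In the astrocyte and glioma list 1 of 17 was called higher and 0 lower (3 higher and 1 lower unadjusted), while 11 had negative differences. The called one was CHI3L1, a secreted glycoprotein, at 0.46 ± 0.05 (adjusted p = 0.00151). In the leukocyte list 0 of 11 were called higher and 1 lower (0 higher and 2 lower unadjusted), and 8 had negative differences. The called one was LYZ, lysozyme, at -0.19 ± 0.04 (adjusted p = 0.0291). Its call was lost without any array but knockdown 1 (adjusted p 0.0679 to 0.0880). It was also lost with its most variable probe set (adjusted p = 0.0753) and without _s_at and _x_at probe sets (adjusted p = 0.259). The table holds no absolute signal, so summed marker levels cannot be given, and the part of these cell types in the results was not tested. In such bulk samples, more RNA per cell and more cells with that RNA cannot be told apart.

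The genes whose values over the 6 arrays lay closest to those of ANK1 were CSGALNACT1, an enzyme of chondroitin sulfate synthesis, OLFML2B, LYPD1, EFEMP1, a fibulin of the matrix, and RASD2, a small GTPase. Their root mean square differences from ANK1 were 0.0384, 0.0408, 0.0516, 0.0595 and 0.0605 log2 units, against a median of 0.390 over the 18131 other genes. No other ankyrin or spectrin gene was among them. The measure depends on the size of the difference, and the other ankyrin and spectrin genes differed far less than ANK1, so nothing is read from their absence. Around SPTB, the member with the lowest difference, the closest genes were LMBR1L, LOC100289511, DIS3L2, RNF114 and NXPH2, at 0.0142 to 0.0214 against a median of 0.0980.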

How the data were processed

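Each probe set has a log2 value for every array in the deposited table. RMA (background correction, joint normalization and summary of probes) was the authors' tool, per the submitters' processing notes; version, build and any later step are not given in the sources used here. The log base is taken from RMA. In the deposited log2 values the median of each probe set over the 6 arrays is 0 (largest departure 4.85e-07), so each had been centred and absolute signal is not known; array medians were -0.00238 to 0.00399. All 6 columns were used, and no further normalization was applied.

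Of 49395 probe sets 102 controls were left out. In the platform annotation 44988 of the other 49293 had 1 symbol, 1832 several and 2473 none; 44961 gene IDs matched RefSeq (GRCh38.p14), and 0 symbols differed. Gene values are means of single-symbol probe sets. The test was limma's (version 3.58.1, R 4.3.3), two-sided, with lmFit and eBayes on the 6 arrays and no covariates, with p-values adjusted by Benjamini-Hochberg over 18132 genes or 49293 probe sets and a threshold of 0.05. The code was tested on simulated data. The number of arrays limits precision.

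Members and lists were chosen with earlier results of these data known. Named were PCGF1, the members, up to 3 called genes in each direction per related list and 2 per marker list by size, called neighbours and those of ANK1, and the 5 genes closest to ANK1 and to SPTB. Alternatives were quantile normalization, median centring, array weights, robust eBayes, the replicate number as a block, leaving out each array, and the most variable probe set, the median probe set or no _s_at and _x_at probe sets per gene.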

Additional observations from a re-analysis of the deposited data

How the results depend on the processing

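ANK1 was higher under all 14 alternatives, at 0.84 after quantile normalization, 0.85 without the _s_at and _x_at probe sets, 1.18 with the most variable probe set, and 0.74 to 0.78 when an array was left out. It was chosen for its rise here, and in all 7 of its probe sets every knockdown array was above every control array. Leaving out an array or changing the probe sets could therefore not turn its sign, and nothing is read from the sign. Leaving out 1 array gave 553 to 812 genes called higher and 395 to 590 lower, 808 to 1308 probe sets called higher and 498 to 745 lower, 1 to 2 of the 8 members called, and 3 to 6 related genes called higher and 0 to 1 lower. The replicate block gave 596 genes higher and 440 lower, 909 probe sets higher and 561 lower, and 0 related genes lower. Whether the replicate numbers pair the arrays is not known. Deviations of same-numbered arrays correlated at -0.04, -0.05 and 0.01 across genes, which cannot settle it, as differently numbered arrays were not compared. The block also leaves fewer residual degrees of freedom, and why it gave fewer calls was not tested. Without _s_at and _x_at probe sets 4 related genes were higher and 1 lower, and with the median probe set 1 was lower. For the other 76 single genes and probe sets named, 105 of 406 repeats of a called difference lost the call and 7 of 531 repeats of an uncalled one gained it. The sign turned in 12 repeats of 7 of them, all uncalled and at most 0.0468 in size: NXPH2, which ranged from -0.0566 to 0.0106 when an array was left out, and 1 or 2 probe sets each of ANK2, SPTAN1, SPTBN1, SPTB and EPB41L1. The causes were not tested. With centred values, signal over background is unknown, so a dim probe set cannot be told from a bright one.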
